A study of Mus musculus with 2 samples.

Results

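Mir320, Mir484, Mir877 and Mir702 are 4 mouse microRNA (miRNA) genes whose precursors are known to be made without Drosha, the nuclease that starts the usual route. They were chosen by that known route and not by their values, and each has 1 row among the 1973 miRNA gene rows of the series. Small RNA was sequenced from forebrain of embryos of strain B6NCrl at embryonic day 11.5, without any treatment or mutation. The single group has 2 libraries, labelled as biological replicates. Replicate 1 pools tissue of 109 embryos and replicate 2 pools that of 88, males and females together. The labels list the same donor entry for both pools. There is no control group, and the comparisons are therefore between the 4 genes, between them and the other miRNA genes, and between the libraries.

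On the usual route a long transcript folds into a hairpin, Drosha and its partner DGCR8 cut the hairpin out in the nucleus, and Dicer trims it in the cytoplasm to the short duplex from which an Argonaute protein takes 1 strand. Mir320 and Mir484 avoid the first cut because transcription itself begins at the hairpin, so that the precursor carries a cap at its 5′ end. Mir877 and Mir702 are mirtrons, short introns that the splicing machinery cuts out and that fold into a hairpin once their lariat is opened. All 4 still need Dicer, and miRNAs of these kinds are known to persist in mouse cells that lack DGCR8.

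The sequences of 3 of the genes are given here from RefSeq on build GRCm38.p6, the assembly that mm10 names. In the mature sequences the capitals mark the seed, bases 2 to 8, with which a miRNA pairs to its targets. Mir320 is named without a sequence.
miR-484: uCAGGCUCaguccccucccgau
miR-877-5p: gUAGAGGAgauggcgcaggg
miR-877-3p: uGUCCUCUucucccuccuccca
miR-702-5p: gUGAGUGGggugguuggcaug
miR-702-3p: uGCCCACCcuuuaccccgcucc
The 5 seeds all differ from each other. No other mature mouse miRNA of the table shares the seed of miR-484, of either arm of miR-877 or of miR-702-3p. The seed of miR-702-5p recurs in 1 other, miR-3102-5p, which comes from another short intron described below.

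The hairpins are shown next because their ends can be set against the gene annotation. Capitals mark the mature miRNA in Mir484, the first 2 and last 2 bases of the intron in Mir877, and the first 2 bases of the intron in Mir702.
Mir484: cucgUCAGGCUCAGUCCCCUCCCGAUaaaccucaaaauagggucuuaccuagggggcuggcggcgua
Mir877: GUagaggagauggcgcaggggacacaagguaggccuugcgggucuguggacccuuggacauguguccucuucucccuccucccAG
Mir702: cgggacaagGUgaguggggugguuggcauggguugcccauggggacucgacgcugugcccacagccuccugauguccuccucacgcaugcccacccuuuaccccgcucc
The Mir877 hairpin begins with the GU and ends with the AG that mark the ends of most introns. The Mir702 hairpin starts 9 bases ahead of its intron and stops 2 bases short of its end. The files count reads per gene and not per arm, so none of the values below can be assigned to the 5p or the 3p sequence.

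Levels are given in CPM, the counts on the strand of a gene for every 1000000 such counts over all miRNA gene rows of the library, which held 1281201 in replicate 1 and 1297647 in replicate 2. One count is thus 0.781 CPM in replicate 1 and 0.771 CPM in replicate 2. Reads of this assay are about as long as a mature miRNA, so counts were not divided by gene length, and how efficiently each sequence enters a library was not tested. Together the 4 genes held 5008 counts in replicate 1, or 0.391% of the counts with a 95% Wilson interval of 0.380 to 0.402%. In replicate 2 they held 4670 counts, or 0.360% (0.350 to 0.370%). All intervals reflect counting error alone and not the spread between pools. PCR copies of a molecule are counted as separate reads, so the intervals may be too narrow even for that error.

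Of the genes with a capped precursor, Mir484 stood higher. It had 3128 counts or 2441 CPM in replicate 1, with an exact Poisson interval of 2357 to 2529 CPM, and 2940 counts or 2266 CPM in replicate 2 (2184 to 2349 CPM). Its mean of 2354 ± 124 CPM (SD, n = 2, as for every value with ± below) put it at rank 78 of 1973, and it made up 62.7% ± 0.350 of the counts of the 4 genes. Mir320 had 1429 counts or 1115 CPM in replicate 1 (1058 to 1175 CPM) and 1266 counts or 976 CPM in replicate 2 (923 to 1031 CPM). Its mean was 1045 ± 98.8 CPM, at rank 111, with 27.8% ± 1.01 of the counts of the 4 genes.

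The spliced-intron genes stood lower. Mir877 had 355 counts or 277 CPM in replicate 1 (249 to 307 CPM) and 385 counts or 297 CPM in replicate 2 (268 to 328 CPM). Its mean of 287 ± 13.9 CPM put it at rank 169, and Mir877 is thus the member that was higher in replicate 2. Mir702 had 96 counts or 74.9 CPM in replicate 1 (60.7 to 91.5 CPM) and 79 counts or 60.9 CPM in replicate 2 (48.2 to 75.9 CPM), with a mean of 67.9 ± 9.94 CPM at rank 247. Even Mir702, the lowest of the 4, stood above 63.9% of the 685 gene rows that had a count in either library.

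**Figure D1:**
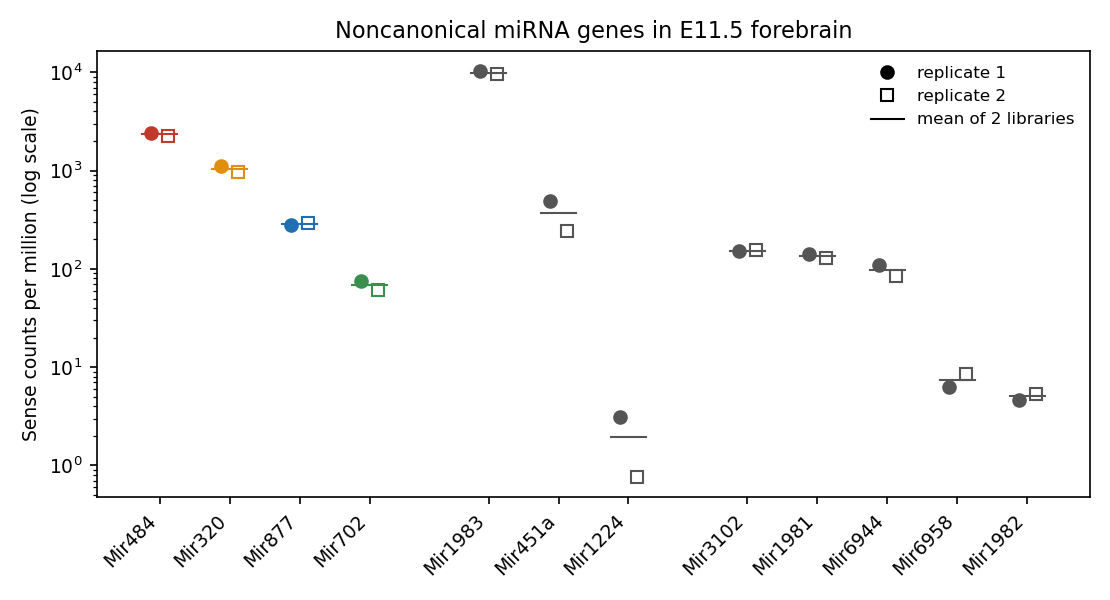
Level in CPM of each gene in replicate 1 (filled circles) and replicate 2 (open squares), on a log axis, with a line at the mean. Mir484, Mir320, Mir877 and Mir702 stand on the left in falling order, with no overlap between their libraries, followed by other noncanonical miRNA genes (Mir1983, Mir451a, Mir1224) and the 5 highest other genes whose hairpin fills an intron within 5 bases (Mir3102 to Mir1982).

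The order Mir484, Mir320, Mir877, Mir702 was the same in both libraries, and the values of neighbours in this order did not overlap. Mir484 exceeded Mir320 by 2.19-fold in replicate 1 and 2.32-fold in replicate 2, a log2 difference of 1.17 ± 0.06. Mir320 exceeded Mir877 by 4.03-fold and 3.29-fold in the same order of libraries (log2 1.86 ± 0.21), and Mir877 exceeded Mir702 by 3.70-fold and 4.87-fold (log2 2.09 ± 0.28). Each step was larger than its spread between the libraries. The full distance from Mir484 to Mir702 was 32.6-fold in replicate 1 and 37.2-fold in replicate 2.

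**Figure D2:**
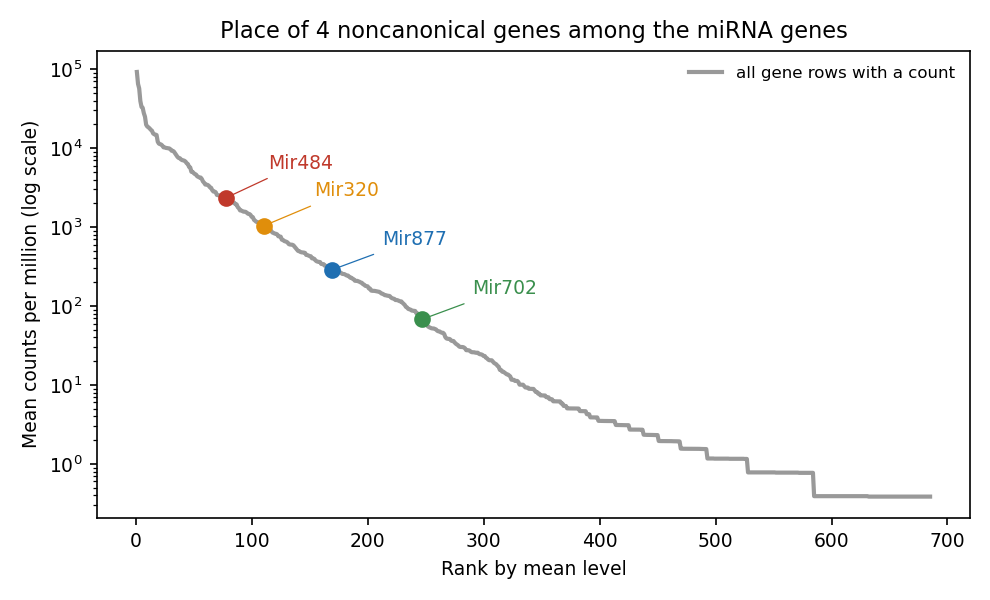
Mean CPM of the 685 gene rows with a count, on a log axis, ordered by level (grey line), with the 4 genes as coloured points. Mir484 lies at rank 78, Mir320 at rank 111, Mir877 at rank 169 and Mir702 at rank 247.

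The genes nearest to each of the 4 in level over the 2 libraries, by distance on the log2(CPM + 0.5) scale, gave a measure of the company they keep. Nearest to Mir484 were Mir323 at 2371 ± 138 CPM (distance 0.0163) and Mir125b-1 at 2366 ± 187 CPM (0.0390). Nearest to Mir320 were Mir200c at 1053 ± 36.9 CPM (0.0877) and Mir665 at 1010 ± 45.3 CPM (0.0982). Mir877 stood beside Mir301b at 283 ± 10.1 CPM (0.0350) and Mir3074-1 at 279.9 ± 8.44 CPM (0.0558), and Mir702 beside Mir199a-2 at 68.7 ± 14.3 CPM (0.0915) and Mir128-2 at 68.3 ± 3.91 CPM (0.130). Of these 8 neighbours, Mir125b-1, Mir3074-1, Mir199a-2 and Mir128-2 share a stretch of 20 bases, on either strand, with another miRNA hairpin. Where that hairpin lies at another place they may be undercounted, because the gene counts hold no multimapping reads. Hairpins that overlap at 1 place were not told apart from these. None of the 4 noncanonical genes shares such a stretch with another hairpin, although other parts of the genome were not compared.

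The reads of the 4 genes lay almost wholly on the strand of the gene. Counts on the opposite strand were 0 for Mir484, Mir877 and Mir702 in both libraries, and for Mir320 they were 0 in replicate 1 and 1 in replicate 2. The sense share of Mir320 in replicate 2 was accordingly 99.9% (exact binomial interval 99.6 to 99.998%). Over all gene rows the sense share was 96.4% in replicate 1 and 96.8% in replicate 2. The 47940 and 43222 opposite-strand counts behind these shares lay in good part in rows with 0 sense counts. Among such rows were Gm24321 with 12924 and 9622 and Gm25927 with 8572 and 7816 opposite-strand counts. A share near 100% was not particular to the 4 genes, since Mir1983 and Mir451a had 0 opposite-strand counts in both libraries. Mir1224 also had 0, but with 4 and 1 sense counts the lower bounds of its share were only 39.8% and 2.5%. For Mir484 in replicate 1 the lower bound of the sense share was 99.9%, and for the sparser Mir702 in replicate 2 it was 95.4%.

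The libraries differed by less than 2-fold at each of the 4 genes. For each of 398 genes with 10 counts or more in all, the split of its counts between the libraries was set against the library totals in an exact binomial test (two-sided, Benjamini-Hochberg adjustment over all 398). Its p-values cover counting error and not the spread between pools. Mir320 was higher in replicate 1, with a log2 ratio of 0.19 that had a 95% interval of 0.08 to 0.30 and an adjusted exact p of 0.00258. Mir484 was also higher there, by 0.11 (0.03 to 0.18, adjusted p = 0.0156 in the exact test). The adjusted p stayed above 0.05 for Mir877, at -0.10 (-0.31 to 0.11, adjusted p = 0.588 in the exact test), and for Mir702, at 0.30 (-0.15 to 0.75, adjusted p = 0.355).

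These calls have to be read against a background of many. Of the 398 genes, 113 or 28.4% passed the same test, 82 (20.6%) higher in replicate 1 and 31 (7.79%) lower, and 2 of the 4 genes did so. The median log2 ratio was 0.15 over the 4 genes and 0.07 over all 398. In either direction, 28.9% of the 398 genes had a larger ratio than Mir702 and 45.5% a larger one than Mir320. That share was 65.1% for Mir484 and 68.6% for Mir877. With a 2-fold minimum, 11 genes or 2.76% were called, 9 (2.26%) higher and 2 (0.503%) lower in replicate 1, and 0 of the 4 were among them. With TMM scaling the call was lost for both Mir320 (adjusted p = 0.0961) and Mir484 (adjusted p = 0.573), and the 106 genes called then split into 52 higher and 54 lower. DESeq2 size factors gave 61 higher and 49 lower, and totals without the 10 most abundant genes gave 58 and 42, and with each of these Mir484 lost its call and Mir320 kept it. The exact test of edgeR, which adds a spread between libraries, gave an adjusted p of 1.0 for each of the 4. It says little about them, since a coefficient of variation set to 0.2 let 0 of the 398 genes pass, and the alternative of 11.4% was estimated from the same 2 libraries that it compares.

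**Figure D3:**
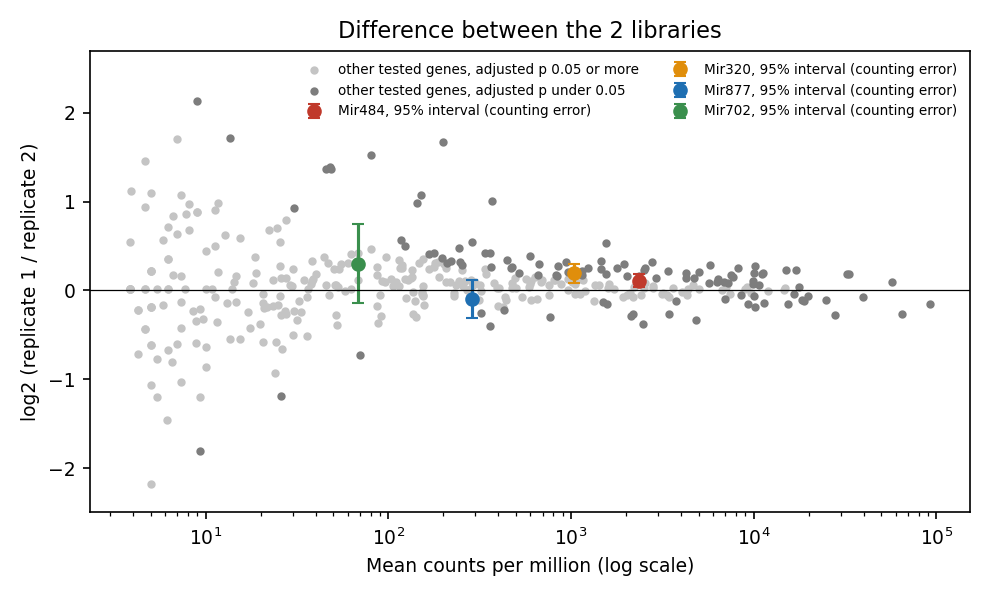
The log2 ratio of replicate 1 over replicate 2 against the mean CPM (log axis) for the 398 tested genes, in dark grey where the adjusted p was under 0.05. The coloured points are Mir484, Mir320, Mir877 and Mir702 with 95% intervals for counting error, at 0.11, 0.19, -0.10 and 0.30, inside the cloud of genes of like level.

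Positions come from the annotation GENCODE M21 on mm10, in which the 4 genes lie on 4 different chromosomes. The nearest other miRNA gene is 30995 bases from Mir484, 42761 bases from Mir877 and 302239 bases from Mir702. Mir320 (ENSMUSG00000065528, chromosome 14, 70443510 to 70443591, plus strand) lies in no annotated gene, with its nearest miRNA neighbour 751190 bases away. Its 5′ end is 63 bases from the start of Polr3d, a subunit of RNA polymerase III transcribed the other way. Mir484 (ENSMUSG00000070074, chromosome 16, 14159626 to 14159692, plus strand) has no host gene on its own strand. Its 5′ end lies 359 bases from a start of Marf1, which is transcribed the other way, and an exon of a longer Marf1 transcript overlaps the 3′ end of the hairpin on the opposite strand. The nearest start on the strand of Mir484 is that of Nde1, a gene known from the division of cortical progenitors, downstream at position 14163275.

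No transcript of another gene begins near the capped genes on their own strand in this annotation. Within 100 bases of such a start stood 94 of 1894 annotated miRNA genes, and none of the 4 was among them. A count of hairpins that point away from an opposite-strand start was added after the data were seen. It took in 16 genes within 100 bases, of which Mir320 alone (6.25%) had 2 CPM or more in both libraries. The share at that level was 22.4% over all 1894 annotated genes. Within 500 bases the count took in 32 genes, of which 5 (15.6%) had 2 CPM or more in both libraries. Only this wider window takes in Mir484, at 359 bases, and the levels of both capped genes were known when it was counted. Mir484 and Mir320 were the highest of these 5, followed by Mir673 with 279 CPM in replicate 1 and 230 CPM in replicate 2, or 255 CPM in the mean.

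The mirtrons overlap short introns, the Mir877 hairpin with an exact fit and the Mir702 hairpin with an offset. Mir877 (ENSMUSG00000077931, chromosome 17, 35960730 to 35960814, minus strand) covers the 85 bases of intron 12 of a protein-coding transcript of Abcf1, an ATP-binding protein of translation, with both ends at the intron ends. Its 5p sequence begins at the first base of the intron and its 3p sequence ends 1 base before the last. Mir702 (ENSMUSG00000076240, chromosome 5, 136991433 to 136991541, plus strand) spans most of the 102 bases of intron 13 of Plod3, an enzyme that modifies collagen lysines, and 9 bases of the exon before it. The annotated hairpin overshoots the intron, yet the 5p sequence again begins at the first intron base, and the 3p sequence ends 2 bases before the intron end.

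**Figure D4:**
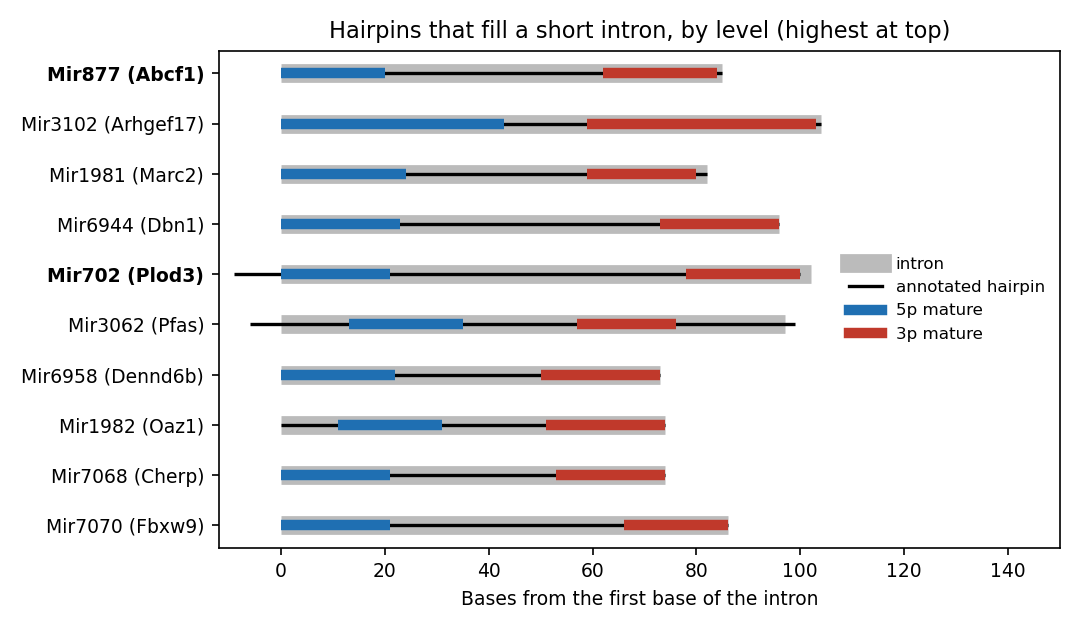
Introns of the 10 highest genes whose hairpin ends lie within 10 bases of the ends of an intron (grey bars), with the hairpin (black line) and the 5p and 3p mature sequences (blue and red), in bases from the first intron base. Mir877 fills its 85-base intron in Abcf1 exactly, and Mir702 starts 9 bases before its 102-base intron in Plod3, while the 5p sequence of both begins at the first intron base.

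Such a fit is rare among miRNA genes. With both hairpin ends within 5 bases of the ends of an intron of at most 200 bases, 23 of 1894 genes (1.21%) qualified, Mir877 among them, and a tolerance of 10 bases gave 29 genes and took in Mir702. Mir877 was the highest of the 29 and Mir702 the fifth. Between them stood Mir3102 in Arhgef17 with 154 ± 1.35 CPM, Mir1981 in Marc2 with 135 ± 9.99 CPM and Mir6944 in Dbn1 with 97.4 ± 17.9 CPM. No library value of Mir877 overlapped those of Mir3102, and none of Mir702 those of Mir6944. The next of the 5-base group, Mir6958 in Dennd6b and Mir1982 in Oaz1, had 7.36 ± 1.58 and 5.04 ± 0.503 CPM.

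Mir877 stood far above most of its group. In both libraries, 8 (34.8%) of the 23 intron-filling genes reached 2 CPM, against 27.5% of 858 genes that lie in a same-strand intron without filling it, 40.4% of the 94 start-proximal genes and 22.4% of all 1894 annotated genes, and these shares were not tested against each other. The median of the mean levels was 1.93 CPM for the intron-filling group, against 0 both for the other intronic genes and for all. Among the genes with 2 CPM or more, the intron-filling median of 52.4 CPM was below the 97.5 CPM of the other intronic genes and the 143 CPM of all. The start-proximal genes had the lowest of these medians, at 36.7 CPM. The 23 genes held 717 CPM in replicate 1 and 693 CPM in replicate 2, of which Mir877 supplied 40.7% in the mean.

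The arms of the mirtrons differed in base composition from most miRNAs, miR-702-5p the least, in a comparison added after the data were seen. Introns are known to end in a stretch rich in C and U ahead of the final AG. In miR-877-3p, C and U make up 90.9% of the bases, and in miR-702-3p 81.8%, against a median of 59.1% over 731 mature 3p sequences of the RefSeq table. A lower share was found in 99.7% of these sequences for miR-877-3p and in 95.8% for miR-702-3p. The 22 3p sequences of the other intron-filling genes (10-base tolerance) had a median of 73.9%. The 5p arms ran the other way, with 20% for miR-877-5p and 33.3% for miR-702-5p, against a median of 45.5% over 727 mature 5p sequences. A lower share was found in 2.75% of these 5p sequences for miR-877-5p and in 18.3% for miR-702-5p. The 24 5p sequences of the other intron-filling genes had a median of 27.3%, below that of miR-702-5p.

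**Figure D5:**
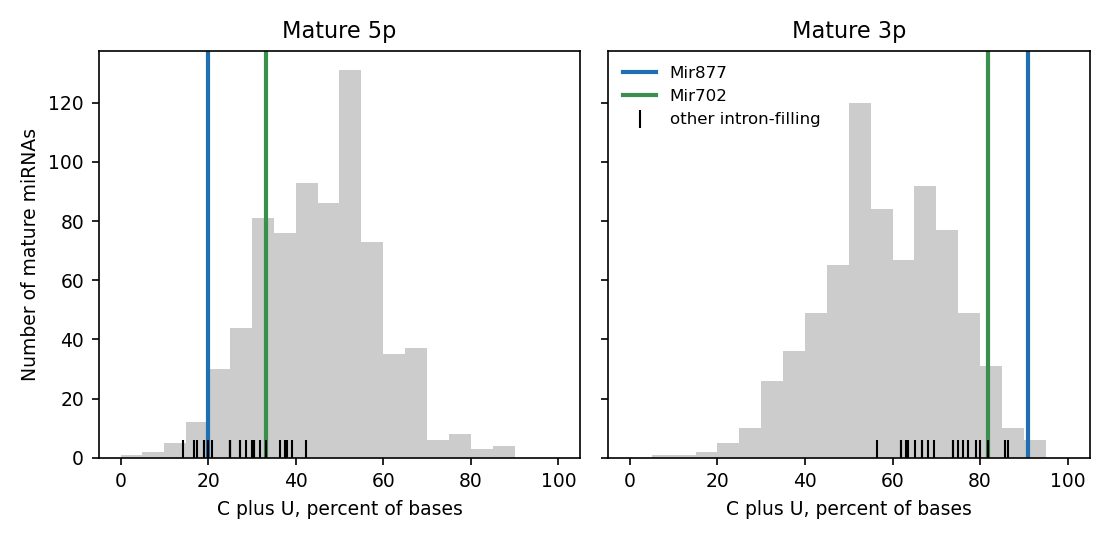
Share of C and U in mature 5p (left) and 3p (right) miRNAs of the RefSeq table, as a histogram with the number of sequences on the vertical axis. Lines mark Mir877 (20% in 5p, 90.9% in 3p) and Mir702 (33.3% in 5p, 81.8% in 3p), at the low side on the left and the high side on the right, and ticks mark the other intron-filling genes.

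Among 26 5p arms of the 29 intron-filling genes, 18 began at the first intron base, those of Mir877, Mir702 and Mir3102 among them, and so begin with the bases of the splice donor. miR-702-5p and miR-3102-5p share the seed UGAGUGG. Mir3102, at 153 CPM in replicate 1 and 155 CPM in replicate 2, stood higher than Mir702 in both libraries. The sequence of miR-3102-5p is shown for this shared seed.
miR-3102-5p: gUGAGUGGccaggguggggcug

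Folds predicted with RNAfold, also added after the data were seen, gave Mir484 fewer pairs than the mirtrons. The 67-base hairpin of Mir484 formed 18 base pairs, so that 53.7% of its bases were paired, and 1.89% of the 1005 hairpins in the table had a lower share. Its predicted fold energy per base, -0.367 kcal/mol, was not extreme and lay between the quartiles of all hairpins (-0.465 and -0.342). Mir877 and Mir702 had 28 and 36 pairs and 65.9% and 66.1% of bases paired, near the median of 69.0%. In G and C the 3 genes stood above the median of 51.7%, with 58.2% for Mir484, 61.2% for Mir877 and 65.1% for Mir702. The other intron-filling hairpins had a median of 60.0%.

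Further miRNAs of noncanonical origin spanned a wider range than the 4 genes. Of 5 on a list of such genes, 3 were matched to a row. Mir1839 and Mir664, which come from small nucleolar RNAs, were not matched through the M21 identifiers, by which 79 rows of the files have no name. Those 79 rows together held 0 counts in replicate 1 and 1 count in replicate 2. Mir1983, a tRNA-derived gene, reached 10322 CPM in replicate 1 against 9600 CPM in replicate 2, above each of the 4 genes. Mir451a, which needs Drosha but is cut by AGO2 in place of Dicer and marks red blood cells, stood at 493 CPM in replicate 1 against 244 CPM in replicate 2, a larger distance between libraries than that of any of the 4 genes (log2 ratio 1.01, 95% interval 0.82 to 1.21). Mir1224, a mirtron of Vwa5b2 that fills its intron exactly, had 4 counts in replicate 1 and 1 count in replicate 2, or 1.95 ± 1.66 CPM. The interval of Mir1224 in replicate 1, 0.851 to 7.99 CPM, lay below that of Mir702, the lowest of the 4.

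The tissue held miRNAs of several cell types beside the 4 genes. Neural markers (9 of 10 with a row at 2 CPM or more, none at 0) summed to 23907 CPM in replicate 1. Their sum in replicate 2 was 20741 CPM. In the same order of libraries, the endothelial Mir126a had 34601 and 30323 CPM, and mesenchymal markers (3 of 3) summed to 14625 and 13223 CPM. The neural sum may be too low, because Mir9-2, Mir124a-2, Mir124a-3 and Mir128-2 share 20 bases with other hairpins, while Mir126a does not. The neural and endothelial values can therefore not be ranked against each other. Blood markers (3 of 3) summed to 945 and 655 CPM. The hindbrain and trunk markers Mir10a and Mir10b summed to 187 and 67.0 CPM, and the liver marker Mir122 to 21.1 and 6.165 CPM. The 3 striated muscle markers with a row, Mir1a-1, Mir133a-1 and Mir133a-2, were at 0. Reads that map to several gene copies are in no gene count, so a 0 here does not show that these miRNAs were absent. The part of these cells in the levels of the 4 genes was not tested, and in tissue RNA fewer cells of a type and less RNA per cell cannot be told apart.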

How the data were processed

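The authors deposited raw counts per miRNA gene for each library, per the files, with reads aligned to mm10 and the GENCODE M4 annotation per the text files deposited with them. No source used here names the aligner or the counter. The column for the strand of the gene was used. The 4 leading rows (unmapped, multimapping, no feature, ambiguous) stayed out of totals and tests. Reads mapping to several places were 41.7% and 39.1% of the mapped reads in replicates 1 and 2 and are in no gene count. Of 1973 rows, 1894 were found in GENCODE M21, which gave symbols, hosts and transcript starts (transcripts of miRNA and other short RNA genes left out).

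The members, the lists and the rule for named genes were chosen with earlier results of these data known. Beside the members, the text names the genes of the noncanonical list, the 2 nearest genes in level of each member, and the 5 highest intron-filling and start-proximal genes. Mir673, miR-3102-5p as a shared seed and the opposite-strand genes were named after their values were seen. Hairpins were compared for shared stretches of 20 bases on either strand, with overlapping hairpins included. RefSeq sequences were found for 3 of the 4 members.

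Versions were Python 3.11.15, scipy 1.17.1, R 4.3.3, edgeR 4.0.16, DESeq2 1.42.0 and RNAfold 2.7.2. A pseudocount of 0.5 was added for log2 ratios. Quasi-likelihood tests between conditions could not be run with a single group. Alternatives covered scaling, filters, the pseudocount, the unstranded column, the totals, the test and the annotation windows.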

Additional observations from a re-analysis of the deposited data

How the results depend on the processing

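The direction of the log2 ratio between the libraries was the same under all 9 alternatives for each of Mir320 (0.12 to 0.19), Mir484 (0.036 to 0.11), Mir877 (-0.17 to -0.10) and Mir702 (0.23 to 0.30). Under TMM scaling Mir320 (0.12, adjusted p = 0.0961) and Mir484 (0.036, adjusted p = 0.573) no longer passed the threshold, and Mir484 also failed it with DESeq2 size factors (0.058, adjusted p = 0.278) and with totals that leave out the 10 most abundant genes (0.056, adjusted p = 0.309). Both failed in the edgeR exact test, at 0.19 for Mir320 and 0.11 for Mir484 with either dispersion. With a coefficient of variation set to 0.2, edgeR called 0 of 398 genes (13 at an unadjusted p under 0.05, against 141 at that level and 113 called in the binomial test), and with the estimated dispersion 8 genes, 7 of them 2-fold apart.

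Totals without the 10 most abundant genes set the level at 1774 CPM for Mir320, 3995 CPM for Mir484, 488 CPM for Mir877 and 115 CPM for Mir702, and totals of all mapped reads at 503, 1134, 139 and 32.6 CPM in the same order. Both follow from the smaller or larger total, and the order of the 4 genes was the same. Without replicate 1 or without replicate 2 the levels ran from 976 to 1115 CPM for Mir320, 2266 to 2441 CPM for Mir484, 277 to 297 CPM for Mir877 and 60.9 to 74.9 CPM for Mir702. Start-proximal genes numbered 60 within 50 bases and 182 within 250 bases, where Mir702 joined them beside a start of a Plod3 transcript.

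No paired analysis was possible because the series has 1 group.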

Other observations

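Start-proximal miRNA genes, whose 5′ end lies within 100 bases of a same-strand start of another gene, did not include the 4 noncanonical genes. The 5 highest of the 94 were Mir126a beside Egfl7 at 32462 ± 3025 CPM, Mir125a beside Spaca6 at 6417 ± 407 CPM, Mir140 beside Wwp2 at 4241 ± 286 CPM, Mir16-1 beside Dleu2 at 3418 ± 371 CPM and Mir181a-1 beside A430106G13Rik at 2935 ± 199 CPM. In all 5 the start lies downstream of the 5′ end of the hairpin, by 77, 81, 93, 80 and 76 bases. Another hairpin holds 20 consecutive bases of Mir16-1, and likewise for Mir181a-1, so their levels are uncertain.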
